A study of Homo sapiens with 4 samples.

Results

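The HOX cluster genes are the protein-coding genes whose symbol is HOX followed by a cluster letter from A to D and a number, and 39 of the 69222 gene identifiers in the deposited count tables met this rule. They comprise 11 HOXA, 10 HOXB, 9 HOXC and 9 HOXD genes. Their RNA was measured in HEK293T cells, an established line derived from human embryonic kidney that makes SV40 large T antigen, by sequencing poly(A) RNA. Cells in both groups received a short hairpin RNA by lentivirus. In the shRPRD1B group (2 libraries) the hairpin targeted RPRD1B, a protein that binds the phosphorylated C-terminal domain of RNA polymerase II, and in the shCtrl group (2 libraries) it was a control hairpin. The labels name 1 hairpin per group and do not state that the libraries of a group are separate cultures. The p-values therefore measure only the spread among these libraries, which may be technical. For cells in bulk, a lower level can come from fewer cells that make a transcript or from less transcript per cell, and the 2 cannot be told apart.

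HOX proteins are transcription factors that bind DNA through a homeodomain and give cells their position along the head-to-tail axis. The genes lie in 4 clusters made by duplication, and genes at the same place in different clusters form a paralogue group, numbered from 1 at the anterior end to 13 at the posterior end. In embryos the order along the cluster matches the order of expression along the body axis, so low numbers are used in the hindbrain and neck and high numbers in the trunk, kidney, limbs and genital region. The HOX11 paralogues HOXA11, HOXC11 and HOXD11 act together in the embryonic kidney. The clusters also hold noncoding RNA genes, among them antisense transcripts and the microRNAs of the miR-10 and miR-196 families.

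In the GENCODE 29 annotation (GRCh38) the HOXA cluster lies on chromosome 7, and the HOXB cluster spans chr17:48528526-48729178, HOXC chr12:53938765-54056030 and HOXD chr2:176092891-176190907. The genes are packed closely and many share exonic bases with a neighbour or an antisense gene: 25 of the 39 do and 14 do not. The strand setting of the authors' counting is not given in the sources used here, so reads from such shared bases cannot be assigned to 1 gene with certainty.

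Sequences of 3 kinds are shown here because the values below are read against them. The first is the mature microRNA of the miR-196 family, which is encoded inside 3 of the clusters and is known to target HOX transcripts. Capitals mark the seed, bases 2 to 8 from the 5′ end, which is the same in both members. The sequences are from RefSeq (GRCh38.p14). miR-196a is encoded on the minus strand at chr17:48632532-48632553, within HOXB, and on the plus strand at chr12:53991762-53991783, within HOXC, and miR-196b on the minus strand at chr7:27169528-27169549, within HOXA. The miR-10 family has another seed, and its HOXB copy lies on the minus strand at chr17:48579904-48579926.
hsa-miR-196a-5p: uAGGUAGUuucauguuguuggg
hsa-miR-196b-5p: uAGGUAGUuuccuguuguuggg
hsa-miR-10a-5p: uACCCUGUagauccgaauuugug

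The second kind is the match to the miR-196 seed in the 3′ UTRs of HOX transcripts. The 7 letters ACTACCT, read on the transcript strand, occurred in the 3′ UTR of 8 of the 39 HOX genes (20.5%) at 0.311 sites per kb, against 6.19% of 18881 protein-coding genes at 0.0444 sites per kb, each gene by 1 GENCODE 29 transcript. The 8 genes were HOXA5, HOXA7, HOXA9, HOXB1, HOXB6, HOXB7, HOXB13 and HOXC8, and HOXA7 alone held 4 of the 13 sites. HOXB8, the known miR-196 target with near-complete pairing, does not hold these letters but has a window in which 21 of 22 bases pair by Watson and Crick rules and the other 1 as G with U. Each window below is 22 bases on the transcript strand, with the bases opposite the seed in capitals. Positions count from the first base of the 3′ UTR.
HOXB8 3′ UTR bases 411 to 432: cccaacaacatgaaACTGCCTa
HOXA7 3′ UTR bases 458 to 479: cctactcccctaaaACTACCTa
HOXC8 3′ UTR bases 114 to 135: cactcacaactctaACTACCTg
HOXA5 3′ UTR bases 427 to 448: atatttttattcaaACTACCTa

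The third kind is the stretch around the start of transcription of 2 genes from the ends of the range of levels, HOXD13, which had the highest level per kilobase, and HOXB1, which had no counts in shCtrl. Each is 300 bases from RefSeq (GRCh38.p14), set around the start of the RefSeq transcript with most bases before it, written 5′ to 3′ on the gene's own strand. HOXD13 lies on the plus strand at chr2:176092471-176092770 and HOXB1 on the minus strand at chr17:48530962-48531261. The GENCODE 29 model of HOXD13 starts farther downstream, at base 176092891, so by that model the whole HOXD13 window lies before the start. Capitals mark TATAAA, the letters of a TATA box, which were searched on both strands. HOXD13 has 1 and HOXB1 none. Windows were listed for 20 of the 39 HOX genes, 27 windows in all, with the 1 window that HOXC4 and HOXC5 share counted for each, and 5 of these (18.5%) held TATAAA, in HOXA3, HOXA9, HOXA10 and HOXD13, against 11.5% of all 35116 windows in the table. Their median CpG count was 22 per window, against 14 in all windows.
HOXD13: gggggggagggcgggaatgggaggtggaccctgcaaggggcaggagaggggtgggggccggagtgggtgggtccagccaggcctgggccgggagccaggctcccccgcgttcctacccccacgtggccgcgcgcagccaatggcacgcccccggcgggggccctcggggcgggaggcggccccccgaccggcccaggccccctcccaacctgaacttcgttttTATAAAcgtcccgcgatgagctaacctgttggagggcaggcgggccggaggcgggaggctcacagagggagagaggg
HOXB1: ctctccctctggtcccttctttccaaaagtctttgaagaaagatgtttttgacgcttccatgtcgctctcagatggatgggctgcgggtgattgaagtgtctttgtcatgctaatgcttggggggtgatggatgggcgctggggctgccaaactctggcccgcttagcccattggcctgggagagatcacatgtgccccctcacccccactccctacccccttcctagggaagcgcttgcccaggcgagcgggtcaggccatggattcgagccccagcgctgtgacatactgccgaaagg

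Levels are given as CPM, counts divided by the scaled library size, always with library 1 before library 2. RPRD1B itself, the check of the labels, measured 50.4 and 50.1 CPM in shCtrl and 27.2 and 35.5 CPM in shRPRD1B. The groups did not overlap and its log2 fold change was -0.68 ± 0.16 (SE), with an adjusted p of 0.448 in edgeR's quasi-likelihood test, not past the threshold of 0.05, and 0.0467 in DESeq2. The adjusted p in edgeR was 0.000363 without shRPRD1B 1 and 7.59e-06 without shRPRD1B 2, fits that take the spread of the lone library from the other group. The knockdown libraries differed more from each other than the control libraries did: among 8966 genes of at least 16 CPM the SD of the log2 ratio within a pair was 0.171 in shCtrl and 0.393 in shRPRD1B. Total counts ranged from 47732913 to 65572391. Of 13 transcription factors of kidney development, 10 were at 1 CPM or more in shCtrl, SIX2 at 68.9 to 71.3 CPM in the 4 libraries, while PAX8 was at most 0.0422 CPM. Of 7 leukocyte markers 1 was at 1 CPM or more in shCtrl, and PTPRC was at most 0.0305 CPM. Of 6 epithelial markers 4 were at 1 CPM or more in shCtrl, while KRT19 was at 0 in all 4 libraries.

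HEK293T cells carried RNA from nearly the whole of all 4 clusters. Of the 39 HOX genes, 36 (92.3%) had a mean of at least 1 CPM in shCtrl, against 64.6% of 19183 protein-coding genes. The 3 below were HOXB1, HOXC5 and HOXD12, and 59.9% of the exonic bases of HOXC5 overlap other gene models. All 11 HOXA genes reached a mean of 1 CPM, as did 9 of 10 HOXB, 8 of 9 HOXC and 8 of 9 HOXD genes. The sum over the 39 genes was 1381 and 1363 CPM in shCtrl and 1264 and 1217 CPM in shRPRD1B. HOXA supplied 29.6% of the sum in shCtrl, HOXB 27.7%, HOXC 13.98% and HOXD 28.7%.

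The posterior genes were the most abundant. Paralogue groups 9 to 13 made up 67.7% of the summed HOX CPM in shCtrl, groups 4 to 8 25.3% and groups 1 to 3 7.01%. Since longer transcripts collect more reads, levels between genes were compared per kilobase of 1 representative transcript. The median was 18.9 CPM per kb for the 16 posterior genes, 8.49 for the 15 central genes and 3.996 for the 8 anterior genes. The order was not strict: HOXC12, HOXD12 and HOXC11 are posterior and stood at 0.482, 0.497 and 5.00 CPM per kb, while the central gene HOXA5 stood at place 3 of 39.

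The highest level per kilobase belonged to HOXD13, a gene of the developing hand, foot and genital region, at 100.5 ± 4.02 CPM per kb (SD, n = 2) in shCtrl. HOXB9, a gene of the thoracic region, followed at 68.3 ± 0.246, then HOXA5, which patterns the lung and airways, at 55.1 ± 2.84. HOXA9, known from blood stem cells and leukaemia, stood at 40.1 ± 0.601 and HOXA10, a gene of the uterus, at 34.6 ± 1.17. None of these 5 overlapped with its neighbour in the order in the shCtrl libraries. HOXD11, HOXD10, HOXC4 and HOXC9 came next at 28.3, 24.9, 23.8 and 23.3 CPM per kb, and of these HOXC4 and HOXC9 overlapped between libraries. HOXA5, HOXB9 and HOXD13 were the highest members of their clusters, and HOXC4 and HOXC9 stood together at the top of HOXC.

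Where only exonic bases that no other gene shares were used as length, the order changed for several genes. The whole count of a gene was divided by this length, so the value is too high where reads from shared bases were counted. HOXD4 moved farthest, from place 24 at 7.39 to place 4 at 37.8 CPM per kb, and 80.5% of its exonic bases overlap another gene model. HOXA4 moved from place 29 to place 20. HOXC4 went from place 8 to place 14 at 17.7 CPM per kb, below HOXC9 at 23.3, so which gene is highest in HOXC depends on the length used. HOXA5, HOXB9 and HOXD13 were the highest of their clusters with either length.

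**Figure D1:**
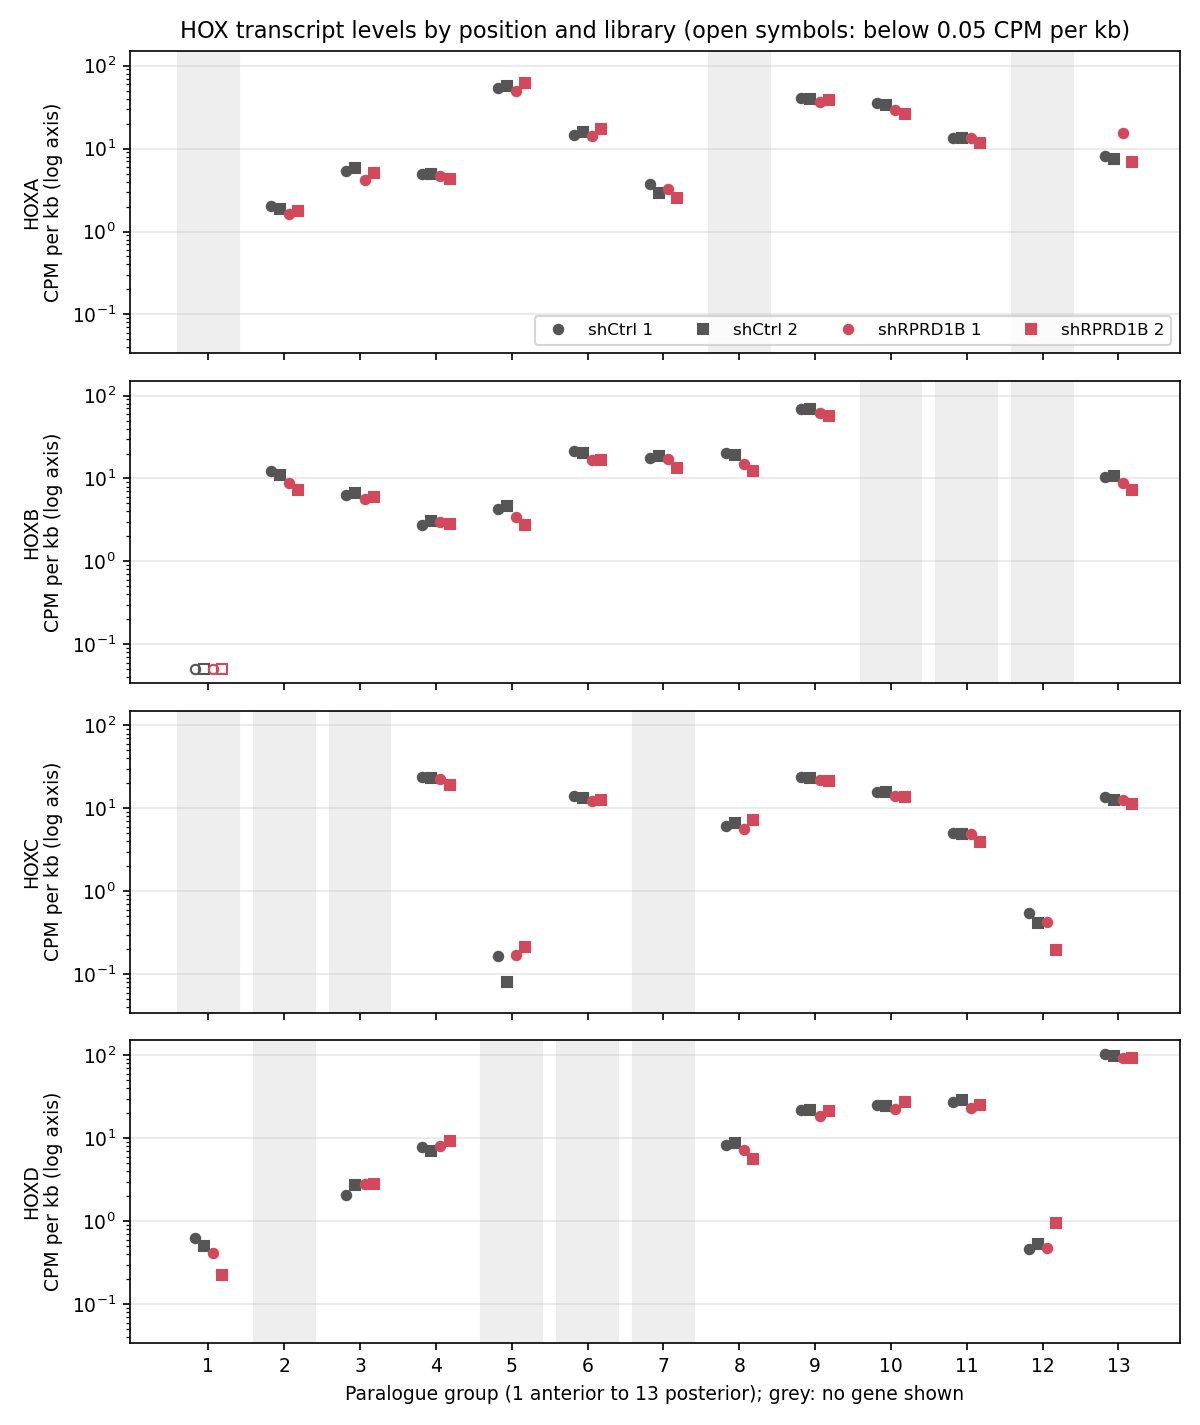
Level of 38 HOX genes in CPM per kb of transcript (log axis) by paralogue group, 1 panel per cluster, with shCtrl in grey, shRPRD1B in red, circles for library 1 and squares for library 2. HOXD13, HOXB9 and HOXA5 top their clusters, HOXC4 and HOXC9 lie together at the top of HOXC, and HOXB1 lies below the axis range (open symbols at 0.05). At most positions the 4 libraries lie close together. Exceptions include HOXA13 in shRPRD1B 1 and the low genes HOXC5, HOXC12, HOXD1 and HOXD12.

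No HOX gene passed the test for a change in shRPRD1B. The filter on low counts kept 38 of the 39. At an adjusted p under 0.05, 0 were called by edgeR, DESeq2 or limma voom, where edgeR called 0.0689% of all 20319 tested genes (14), DESeq2 called 1.18% (240) and limma voom called 0. By direction, edgeR called 0.0295% of all tested genes higher and 0.0394% lower. At an unadjusted p under 0.05 in edgeR, 7 HOX genes were lower in shRPRD1B (18.4%, against 3.94% of all tested genes) and 0 were higher (3.55% of all tested genes). DESeq2 and limma voom also gave 7 lower and 0 higher. In edgeR they included HOXA10 and 5 HOXB genes, HOXB2, HOXB5, HOXB6, HOXB8 and HOXB13.

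The fitted differences were small and mostly of 1 sign. The log2 fold change was negative for 29 of 38 HOX genes (76.3%, against 49.5% of all tested genes), with a median of -0.17 against 0.00 for all tested genes. The median was -0.32 in HOXB, -0.14 in HOXA, -0.15 in HOXC and -0.10 in HOXD. Against the shCtrl mean, the median difference was -0.15 for the first knockdown library and -0.19 for the second. In both libraries 28 genes were below that mean (73.7%, against 28.8% of all tested genes). The 2 groups did not overlap and shRPRD1B was lower for 25 HOX genes (65.8%, against 20.6% of all tested genes) and higher for 3, HOXC5, HOXD3 and HOXD4 (7.89%, against 20.3%). The 95% interval of the log2 fold change lay between -1 and 1 for 32 of 38 genes (84.2%, against 61.2% of all tested genes). For these a change of 2-fold or more in either direction lies outside the interval. Among genes of at least 5 CPM the shares were close, 93.9% of 33 HOX genes and 92.6% of all 11541 genes.

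The knockdown library that was left out decided the count of calls. Without shRPRD1B 1, 13 HOX genes were called (34.2%, against 29.1% of the genes tested in that fit), all lower. Without shRPRD1B 2, 8 were called (21.1%, against 10.4%), 7 lower and HOXA13 higher. The 2 fits shared 5 called genes, among them HOXA10, HOXB2, HOXB6 and HOXB8, 38.5% of the first set and 62.5% of the second. The HOX median log2 fold change was -0.14 without shCtrl 1 and -0.19 without shCtrl 2. The fits assume that the lone shRPRD1B library varies like the shCtrl pair, whose libraries lay closer together: over the 33 HOX genes of at least 5 CPM the SD of the log2 ratio within a pair was 0.129 in shCtrl and 0.294 in shRPRD1B.

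**Figure D2:**
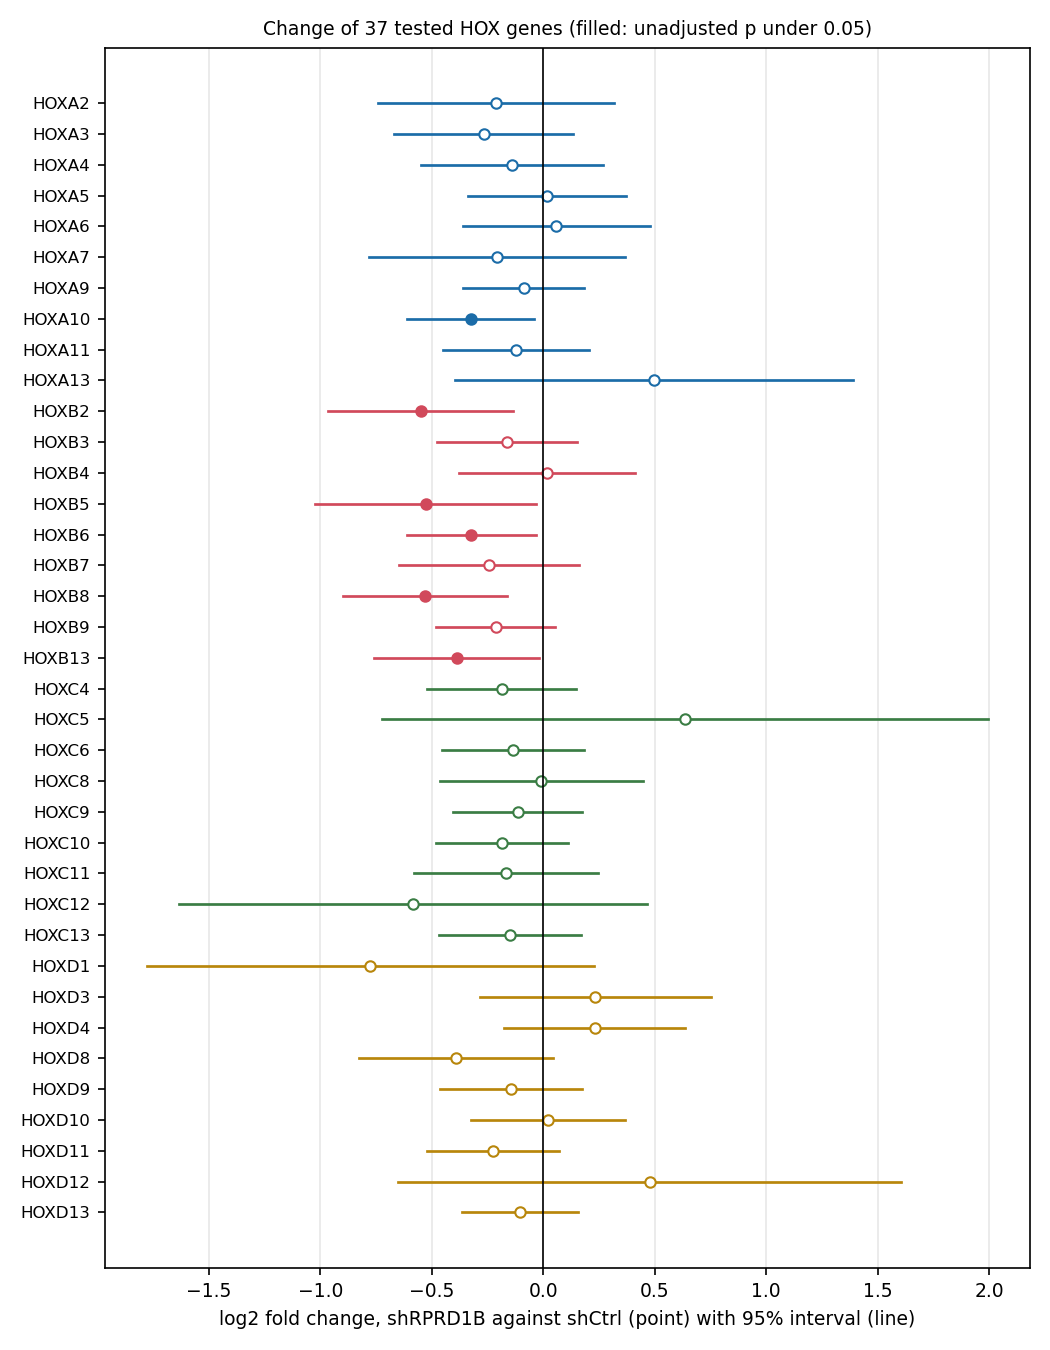
Fitted log2 fold change of shRPRD1B against shCtrl for 37 tested HOX genes (points) with 95% intervals (lines), coloured by cluster, filled where the unadjusted p was under 0.05. The 6 filled points all lie below 0, and the 6 intervals that reach beyond -1 or 1 belong to HOXA13, HOXB5, HOXC5, HOXC12, HOXD1 and HOXD12.

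Among the anterior HOXA genes the fitted differences shown here were small. HOXA3, needed for the thymus and parathyroid glands, measured 18.3 and 19.7 CPM in shCtrl and 14.2 and 17.4 CPM in shRPRD1B, with no overlap between the groups. HOXA2, a gene of the second pharyngeal arch, lay under 5 CPM, between 2.93 and 3.69 CPM.

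The central HOXA genes stayed close to the controls. HOXA4 measured 8.65 and 8.61 CPM in shCtrl and 8.10 and 7.55 CPM in shRPRD1B. HOXA5 measured 88.0 and 94.7 CPM in shCtrl and 82.7 and 102 CPM in shRPRD1B, with the knockdown libraries below and above the controls, and a log2 fold change of 0.02 with a 95% interval from -0.34 to 0.37. HOXA6 showed the same split at 14.2 and 15.7 CPM in shCtrl and 14.01 and 17.3 CPM in shRPRD1B. In these the groups overlapped except for HOXA4, whose 4 values span little. HOXA7, which carries 4 of the miR-196 seed matches, measured 7.60 and 5.88 CPM in shCtrl and 6.55 and 5.09 CPM in shRPRD1B, and its controls and knockdown libraries overlapped.

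In the posterior part of HOXA, HOXA10 was the gene with an unadjusted p under 0.05. It measured 90.1 and 85.9 CPM in shCtrl and 73.3 and 67.0 CPM in shRPRD1B, with no overlap, a log2 fold change of -0.33 ± 0.11 (SE) and adjusted p = 0.649. HOXA9 measured 83.5 and 81.8 CPM in shCtrl and 75.5 and 80.0 CPM in shRPRD1B, also with no overlap. HOXA11, a kidney, uterus and forearm gene, measured 31.2 and 31.0 CPM in shCtrl and 30.6 and 26.6 CPM in shRPRD1B, and most of its difference lay in shRPRD1B 2.

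HOXA13, a gene of the hand, foot, hindgut and urogenital tract (chr7:27193503-27200106, minus strand), stood apart in 1 library. It measured 41.3 and 37.6 CPM in shCtrl and 76.9 and 34.4 CPM in shRPRD1B. The value in shRPRD1B 1 was 2.04 times the mean of the other 3 libraries (37.8 CPM), while shRPRD1B 2 lay below both controls. The log2 fold change was 0.50 ± 0.36 (SE), with a 95% interval from -0.39 to 1.39 and adjusted p = 0.745. It was 0.97 without shRPRD1B 2, where it was called, and -0.20 without shRPRD1B 1, so its sign rests on 1 library. A log2 difference of 1.16 or more between the knockdown libraries was seen in 210 of 11541 genes of at least 5 CPM (1.82%). The genes on either side did not share the high value: HOXA11 is given above, HIBADH beyond the posterior end measured 69.1 and 65.1 CPM in shCtrl and 58.3 and 51.4 CPM in shRPRD1B, and EVX1, between them, was at most 0.288 CPM. HOTTIP, the noncoding RNA read from the opposite strand next to HOXA13, measured 1.39 and 1.27 CPM in shCtrl and 1.40 and 0.657 CPM in shRPRD1B, and only 1.69% of the exonic bases of HOXA13 overlap it.

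The HOXB cluster held 5 of the 7 genes with an unadjusted p under 0.05. HOXB2, a hindbrain gene, measured 19.3 and 17.3 CPM in shCtrl and 13.7 and 11.2 CPM in shRPRD1B and had a log2 fold change of -0.55 ± 0.17 (SE) with adjusted p = 0.587. HOXB8, known from neural and myeloid cells and carrier of the near-complete miR-196 site (chr17:48611377-48614939, minus strand), measured 36.6 and 35.3 CPM in shCtrl and 27.4 and 22.3 CPM in shRPRD1B. Its log2 fold change was -0.53 ± 0.15 (SE) with adjusted p = 0.561. In both genes shRPRD1B 2 was the lowest library and the groups did not overlap. HOXB5, a gene of the foregut and enteric nerves, measured 8.65 and 9.62 CPM in shCtrl and 7.10 and 5.55 CPM in shRPRD1B, with a log2 fold change of -0.53 ± 0.20 (SE) and adjusted p = 0.660. HOXB13, a prostate gene and partner of the androgen receptor, measured 35.8 and 37.2 CPM in shCtrl and 30.9 and 24.9 CPM in shRPRD1B, with -0.39 ± 0.15 (SE) and adjusted p = 0.660. HOXB6 measured 42.0 and 40.0 CPM in shCtrl and 33.1 and 32.5 CPM in shRPRD1B, with -0.32 ± 0.12 (SE) and adjusted p = 0.656. These 5 genes are not neighbours in 1 block, since HOXB3, HOXB4, HOXB7 and HOXB9 lie between them.

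The other HOXB genes had smaller fitted differences. HOXB9, the highest of the cluster, measured 177 and 176 CPM in shCtrl and 158 and 146 CPM in shRPRD1B, with no overlap and a log2 fold change of -0.21 ± 0.11 (SE). HOXB3 measured 26.5 and 28.1 CPM in shCtrl and 23.6 and 25.1 CPM in shRPRD1B, also with no overlap. HOXB7, a gene of the ureteric bud in the embryonic kidney, measured 24.5 and 25.4 CPM in shCtrl and 23.6 and 18.6 CPM in shRPRD1B, and most of its difference lay in shRPRD1B 2. HOXB4, used to expand blood stem cells, measured 10.3 and 11.4 CPM in shCtrl and 11.3 and 10.6 CPM in shRPRD1B, with the knockdown values between those of the controls. HOXB1, a gene of the fourth hindbrain segment, had 2 counts in shRPRD1B 1 and 0 in the other 3 libraries, and 3 counts, the upper limit that a count of 0 allows, correspond to 0.0633 and 0.0616 CPM in the shCtrl libraries, for counting error only.

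In HOXC no gene reached an unadjusted p under 0.05. HOXC4, beside HOXC9 at the top per kilobase of transcript, measured 40.0 and 39.2 CPM in shCtrl and 37.7 and 31.8 CPM in shRPRD1B. HOXC6 measured 24.6 and 23.1 CPM in shCtrl and 21.5 and 21.9 CPM in shRPRD1B. Both were lower in both knockdown libraries, with log2 fold changes of -0.19 and -0.14. HOXC8, a gene of the lower neck and upper trunk, measured 11.6 and 12.7 CPM in shCtrl and 10.6 and 13.6 CPM in shRPRD1B, and its knockdown libraries lay below and above the controls. HOXC9, which sets the thoracic identity of motor neurons, measured 35.9 and 34.9 CPM in shCtrl and 33.1 and 32.2 CPM in shRPRD1B. HOXC10, a lumbar gene, measured 30.8 and 30.6 CPM in shCtrl and 27.3 and 26.7 CPM in shRPRD1B. For both genes the groups did not overlap and the log2 fold changes were -0.11 and -0.19. HOXC11 measured 16.6 and 16.1 CPM in shCtrl and 16.1 and 12.9 CPM in shRPRD1B, and HOXC13, a hair and nail gene, measured 33.2 and 30.8 CPM in shCtrl and 30.2 and 27.4 CPM in shRPRD1B. The shRPRD1B 2 library was the lowest in both. HOXC5 had between 7 and 21 counts in a library and HOXC12 between 0.657 and 1.82 CPM, levels at which the 95% intervals ran from -0.72 to 1.99 and from -1.63 to 0.46.

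HOXD held both the highest HOX gene and the only genes of at least 5 CPM that were higher in both knockdown libraries. HOXD13 (chr2:176092891-176095938, plus strand) measured 231 and 219 CPM in shCtrl and 209 and 210.1 CPM in shRPRD1B, with a log2 fold change of -0.10 ± 0.11 (SE). HOXD11, the HOXD paralogue that acts in the kidney, measured 42.5 and 44.2 CPM in shCtrl and 35.6 and 38.6 CPM in shRPRD1B, with a log2 fold change of -0.22 and no overlap. HOXD10, a gene of lumbar motor neurons, measured 49.5 and 49.4 CPM in shCtrl and 45.2 and 55.3 CPM in shRPRD1B, with knockdown libraries on both sides of the controls. HOXD9 measured 40.9 and 40.8 CPM in shCtrl and 34.4 and 39.6 CPM in shRPRD1B. HOXD8 measured 15.7 and 16.8 CPM in shCtrl and 13.9 and 10.9 CPM in shRPRD1B, with a log2 fold change of -0.39 ± 0.18 (SE) and adjusted p = 0.684. Both were lower in the 2 knockdown libraries than in the controls. HOXD4, a gene of the neck vertebrae, measured 11.4 and 10.2 CPM in shCtrl and 11.9 and 13.5 CPM in shRPRD1B and HOXD3 4.92 and 6.47 CPM in shCtrl and 6.68 and 6.71 CPM in shRPRD1B. Their log2 fold changes were 0.23 ± 0.16 (SE) and 0.23 ± 0.21 (SE), with adjusted p = 0.745 and 0.786, and both share most exonic bases with other gene models (80.5% and 74.1%). HOXD1 and HOXD12 lay between 0.438 and 1.24 CPM.

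**Figure D3:**
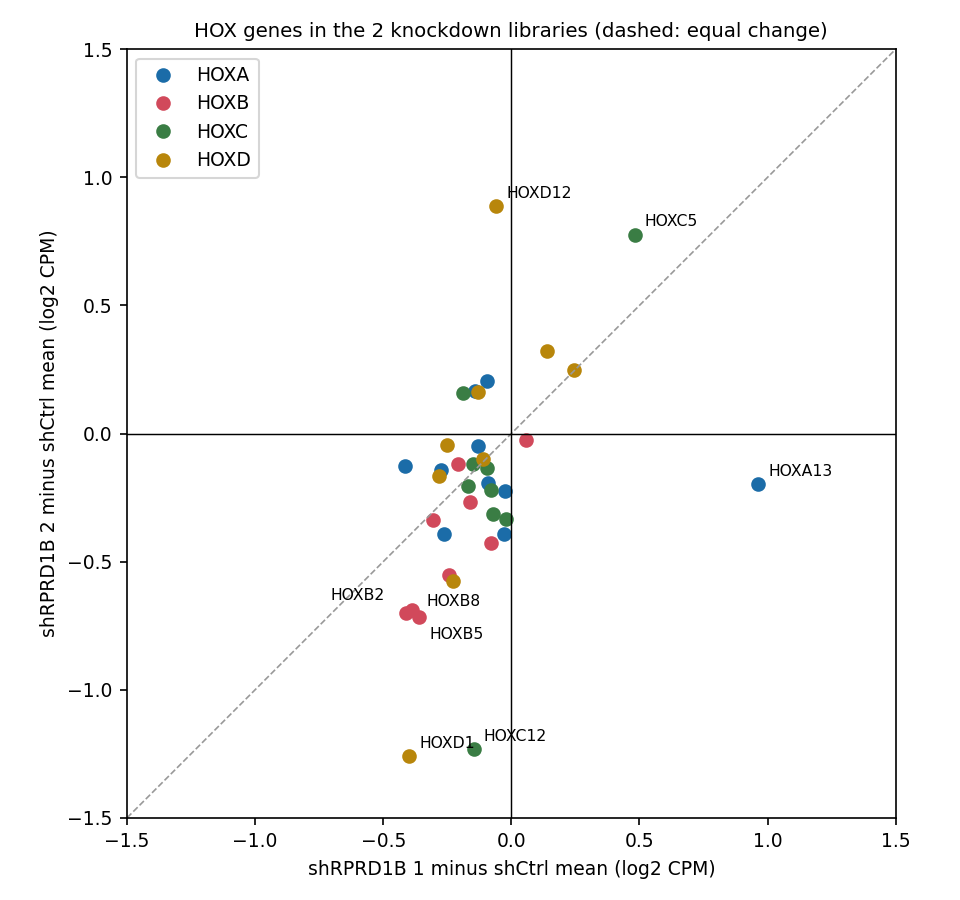
Tested HOX genes by its log2 CPM difference from the shCtrl mean in shRPRD1B 1 (horizontal) and shRPRD1B 2 (vertical), coloured by cluster, with the dashed line marking equal change. Of the 37 genes drawn 27 lie in the lower left of the plot, below the control mean in both libraries, and HOXA13 lies far to the right because it was high in shRPRD1B 1 only.

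Split by what the sequences hold, the 9 HOX genes with a miR-196 seed match or the HOXB8 site stood at a median of -0.23 on the log2 scale (8 tested), and the 30 others at -0.16. The genes overlapped widely, since HOXA5 with a site stood at 0.02 and HOXB2 without one at -0.55. Mature microRNAs are not measured in poly(A) libraries, and the microRNA genes MIR196B and MIR10A had 0 counts in all 4 libraries. The miR-10 seed match ACAGGGT was in the 3′ UTR of 3 HOX genes (7.69%, against 10.9% of protein-coding genes), HOXA3 and HOXB3 among them. The 14 HOX genes that share no exonic base with another gene had a median of -0.21 over the 13 tested, and the 25 that share some had -0.15.

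Noncoding RNA genes of the clusters spanned a similar range. Of 24 listed, 19 were tested and 0 were called by edgeR or DESeq2. At an unadjusted p under 0.05 in edgeR, 2 were lower (3.94% of all tested genes were) and 0 higher (3.55%). Of the 19, 14 had a negative log2 fold change (49.5% of all tested genes did), and the median was -0.17. Taken singly, shRPRD1B 1 had a median difference of 0.03 from the shCtrl mean while shRPRD1B 2 had one of -0.21. In both, 5 of the 19 were below that mean (28.8% of all tested genes were). Several of them overlap HOX genes, so these values are not separate from those above. HAGLR, antisense in HOXD next to HOXD1, measured 24.2 and 24.99 CPM in shCtrl and 17.2 and 13.2 CPM in shRPRD1B, with a log2 fold change of -0.70 ± 0.17 (SE) and adjusted p = 0.481. HOXC13-AS measured 5.59 and 4.54 CPM in shCtrl and 3.48 and 3.05 CPM in shRPRD1B, with -0.63 ± 0.22 (SE). HOTAIRM1, a noncoding RNA of the HOXA cluster, measured 21.2 and 18.8 CPM in shCtrl and 16.8 and 13.4 CPM in shRPRD1B, with -0.40 ± 0.17 (SE). All 3 were lower in both knockdown libraries. HOTAIR, transcribed from HOXC between HOXC11 and HOXC12, measured 8.91 and 8.51 CPM in shCtrl and 9.17 and 8.14 CPM in shRPRD1B, chosen here after its values were seen.

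Most genes just outside the clusters also had a negative log2 fold change, and their difference from the HOX genes was not tested. The 3 nearest protein-coding genes on each side of each cluster gave 24 genes, of which 23 were tested and 0 called by edgeR or DESeq2. Their median log2 fold change was -0.07 and their mean -0.20. The lowest value was -2.64, which pulls the mean down. Of the 23 tested, 17 were negative (49.5% of all tested genes were). In both knockdown libraries 8 were below the shCtrl mean (28.8% of all tested genes were). At an unadjusted p under 0.05 in edgeR, 3 were lower (3.94% of all tested genes were) and 0 higher (3.55%). SKAP1, beside HOXB1, was at most 0.288 CPM in any library. LNPK, near HOXD13, measured 56.6 and 61.1 CPM in shCtrl and 42.2 and 46.7 CPM in shRPRD1B, with -0.40 ± 0.12 (SE). SMUG1, near HOXC4, measured 63.7 and 59.2 CPM in shCtrl and 52.3 and 45.4 CPM in shRPRD1B, with -0.33 ± 0.13 (SE). Both LNPK and SMUG1 were lower in each knockdown library than in each control, with adjusted p = 0.582 and 0.660.

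HOX proteins bind DNA together with homeodomain partners of the PBX, MEIS and PKNOX families. Of 9 such genes 8 were tested, 0 were called by edgeR or DESeq2, and the median log2 fold change was 0.01. At an unadjusted p under 0.05 in edgeR, 1 was higher (3.55% of all tested genes were) and 0 lower (3.94%). MEIS1 measured 19.0 and 18.9 CPM in shCtrl and 22.7 and 23.7 CPM in shRPRD1B, and MEIS2 28.5 and 26.9 CPM in shCtrl and 24.5 and 27.0 CPM in shRPRD1B. MEIS1 was thus higher in both knockdown libraries, while the MEIS2 groups overlapped. PBX2, a widely expressed gene, was at most 0.219 CPM. Whether a low count in these files always means a low level was not tested.

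The chromatin complexes that hold HOX clusters active or silent gave no called gene in edgeR or DESeq2. MLL/COMPASS proteins and their partners deposit activating methylation, and their 12 genes had a median of 0.12. At an unadjusted p under 0.05 in edgeR, 1 of the 12 was lower (3.94% of all tested genes were) and 0 higher (3.55%). Against the shCtrl mean the median of the 12 was -0.07 in shRPRD1B 1, where 8 were lower, and 0.17 in shRPRD1B 2. KDM6B, a demethylase that removes the Polycomb mark, measured 54.8 and 54.6 CPM in shCtrl and 47.3 and 38.6 CPM in shRPRD1B, with -0.35 ± 0.14 (SE), and ASH2L, a COMPASS core subunit, measured 55.5 and 53.9 CPM in shCtrl and 65.2 and 66.2 CPM in shRPRD1B, with 0.26 ± 0.11 (SE). PSIP1, which tethers MLL to chromatin, had 0.19 ± 0.11 (SE). Polycomb complexes silence the clusters, and 21 of 22 listed genes were tested, with a median of 0.03. Of the 21, 2 were higher (3.55% of all tested genes were) and 1 lower (3.94%) at an unadjusted p under 0.05 in edgeR. PHC3, a Polycomb repressive complex 1 subunit, measured 30.3 and 31.4 CPM in shCtrl and 41.0 and 50.3 CPM in shRPRD1B, with 0.56 ± 0.15 (SE) and adjusted p = 0.5004. EZH1, a methyltransferase of Polycomb repressive complex 2, measured 37.5 and 38.9 CPM in shCtrl and 48.5 and 49.0 CPM in shRPRD1B, and RBBP7, a histone-binding subunit, 519 and 522 CPM in shCtrl and 437 and 414 CPM in shRPRD1B. PHC3 and EZH1 were higher and RBBP7 lower in both knockdown libraries. CTCF and cohesin, which shape loops in the clusters, gave 10 tested genes, all with a positive log2 fold change, a median of 0.24 and 0 with an unadjusted p under 0.05. STAG1, RAD21 and STAG2, all cohesin subunits, had the smallest p, with 0.48, 0.25 and 0.23. In shRPRD1B 1 alone 6 of the 10 lay below the control mean.

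Genes that act upstream of HOX expression, the CDX factors and the retinoic acid pathway, leaned lower. Of 17 listed 13 were tested, 11 had a negative log2 fold change (49.5% of all tested genes did), and the median was -0.29. At an unadjusted p under 0.05 in edgeR, 3 were lower (3.94% of all tested genes were) and 1 higher (3.55%). After adjustment edgeR called 0 (0.0689% of all tested genes) and DESeq2 called 1 (1.18%). ALDH1A2, which makes retinoic acid in the embryo, measured 74.3 and 76.1 CPM in shCtrl and 40.0 and 35.2 CPM in shRPRD1B. The groups did not overlap, the log2 fold change was -1.001 ± 0.12 (SE), and the adjusted p was 0.111 in edgeR, not past the threshold, and 2.55e-07 in DESeq2. CYP26A1, which breaks retinoic acid down, measured 11.2 and 9.35 CPM in shCtrl and 7.08 and 4.87 CPM in shRPRD1B, with -0.78 ± 0.24 (SE) and adjusted p = 0.594. RXRA, a partner of the retinoic acid receptors, measured 55.6 and 57.2 CPM in shCtrl and 72.0 and 73.2 CPM in shRPRD1B, with 0.36 ± 0.11 (SE) and adjusted p = 0.577. Of these only RXRA was higher in the knockdown libraries. CDX2, an activator of trunk HOX genes, measured 60.4 and 65.3 CPM in shCtrl and 60.1 and 61.2 CPM in shRPRD1B, chosen here after its values were seen, and CDX1 and CDX4 had 0 counts in every library. Whether the retinoic acid pathway has a part in the HOX values was not tested.

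**Figure D4:**
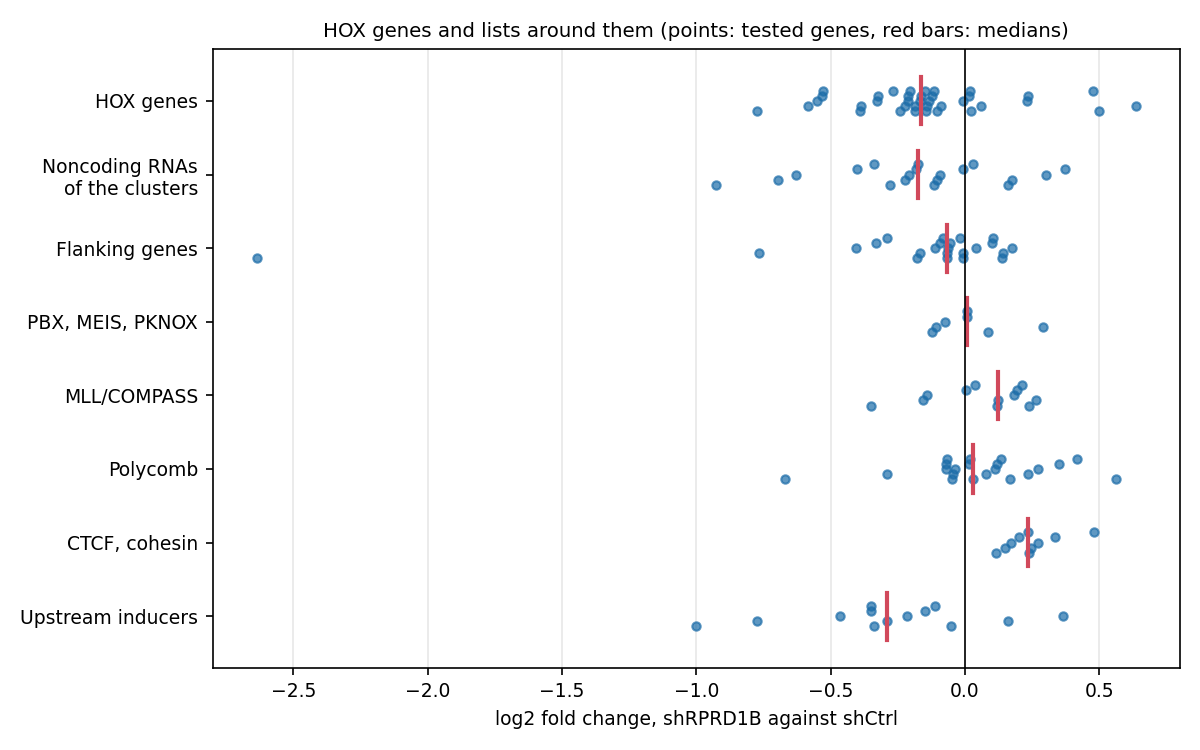
Log2 fold change of tested genes (points) for the HOX genes and 7 lists around them, with red bars at the medians. The HOX genes drawn have a median of -0.16, the noncoding RNAs of the clusters -0.17, the upstream inducers -0.29, the flanking genes -0.07, and the PBX, MEIS and PKNOX, Polycomb, MLL/COMPASS and cohesin lists lie at 0.01 to 0.24.

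Marker lists for other cell types were set beside these values. The 7 neuronal markers, of which 3 were at 1 CPM or more in shCtrl, summed to 17.1 and 17.1 CPM in shCtrl and 28.2 and 24.2 CPM in shRPRD1B. At an unadjusted p under 0.05 in edgeR, 3 of 6 tested genes were higher (3.55% of all tested genes): RBFOX3, ELAVL4 and SNAP25. Of the tested markers 1 had a negative log2 fold change (-0.44). The 7 fibroblast markers summed to 38.04 and 33.6 CPM in shCtrl and 24.6 and 22.2 CPM in shRPRD1B, most of it COL1A1 (32.9 and 27.3 CPM in shCtrl and 20.1 and 19.4 CPM in shRPRD1B), with LUM and COL3A1 at no more than 3.10 CPM and COL1A2 at 0. The 6 epithelial markers summed to 93.2, 89.9, 85.1 and 58.7 CPM in the same order of libraries, led by KRT18, with log2 fold changes of -0.61 for EPCAM, -0.82 for KRT8 and -0.17 for KRT18. The 7 leukocyte markers summed to between 3.08 and 4.91 CPM, with NKG7 and CD14 under 0.9 CPM. Among the kidney factors, EYA1 measured 4.98 and 5.55 CPM in shCtrl and 2.98 and 2.66 CPM in shRPRD1B. GATA3 measured 32.4 and 32.1 CPM in shCtrl and 23.3 and 27.2 CPM in shRPRD1B. These 2 do not stand for the list: of 11 tested kidney factors 6 had a positive and 5 a negative log2 fold change, with a median of 0.01. The part of these lists in the HOX values was not tested.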

How the data were processed

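Poly(A) RNA of HEK293T cells was sequenced in 2 shCtrl and 2 shRPRD1B libraries. Per gene, the deposited files give whole-number counts of reads, which the authors made with Trim Galore, HISAT2 and featureCounts on hg38, per the submitters' processing notes. The sources used here do not give versions, the annotation release, the strand setting or how reads with several matches were treated.

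Of 69222 identifiers, 62686 matched a symbol in the RefSeq tables (GRCh38.p14). Transcript lengths, overlaps and 3′ UTRs came from GENCODE 29, with 1 principal transcript per gene. Counts were fitted with edgeR 4.0.16 (R 4.3.3): TMM factors, filterByExpr with a minimum count of 10, robust quasi-likelihood fit with the group as its only term, and Benjamini-Hochberg adjustment over all 20319 genes tested, with a threshold of 0.05. Log2 CPM used a prior count of 2. SEs and 95% intervals came from the same fit. With 2 libraries a group, no exact permutation gives a two-sided p under 0.333. The libraries of a pair differed beyond sampling noise (chi-square divided by its degrees of freedom 8.97 and 98.6), so all 4 were kept. In simulated counts for these 20319 genes, with 200 of at least 5 CPM changed, the fit recovered 67% of 2-fold and 99% of 4-fold changes. Of its 190 calls, 166 were changed genes. Both groups were simulated with the same spread for a gene, whereas here the shRPRD1B libraries differed more from each other than the shCtrl libraries.

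Values were given for every library for HOX genes with a mean of at least 5 CPM or an unadjusted p under 0.05, and for up to 3 tested genes of each list, by smallest p. A few genes that met this rule are not reported here. The lists were HOX cofactors, MLL/COMPASS, Polycomb, upstream inducers, CTCF and cohesin, HOX-related homeobox genes, cluster noncoding RNAs, flanking genes, kidney factors, and fibroblast, leukocyte, epithelial and neuronal markers. The members and lists were chosen with earlier results of these data known. The alternatives were 2 other scalings, DESeq2 1.42.0, limma voom 3.58.1, 2 other filters, other expression levels, a replicate block, and leaving out each library.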

Additional observations from a re-analysis of the deposited data

How the results depend on the processing

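With 2 libraries a group the spread between libraries limits the precision. Low genes with few counts, such as HOXC5, HOXC12, HOXD1 and HOXD12, had wide intervals. The number of HOX genes called was 0 under both other scalings, DESeq2, limma voom, both other filters and the block, and ranged from 0 to 13 when 1 library was left out. The HOX median log2 fold change ranged from -0.19 to -0.14 when 1 library was left out and was -0.16 without a low-count filter. The number of all genes called was 240 with DESeq2, 0 with limma voom (1460 at an unadjusted p under 0.05), 40 without a filter, 0 when 1 CPM in 2 libraries was required (1186 at an unadjusted p under 0.05), and 54 to 6235 when 1 library was left out. The log2 fold change of RPRD1B was -0.68 in DESeq2, where it passed the threshold, and ranged from -0.88 to -0.50 when 1 library was left out. The number of HOX genes expressed in shCtrl was 37 at 0.5 CPM, 34 at 2 CPM, 33 at 5 CPM and 35 by the shRPRD1B mean.

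With the replicate number as a block, 141 genes were called in all, 0 of them HOX genes, and the HOX median was -0.17. The number is shared in the labels only, and the deviations of same-numbered libraries correlated at 0.209 across genes.

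Leaving out 1 library changed the sign of 7 HOX genes in 11 cases, and no other alternative changed one. Over these fits HOXA5 ranged from -0.14 to 0.17, HOXA6 from -0.10 to 0.20, HOXA13 from -0.20 to 0.97, HOXB4 from -0.059 to 0.095, HOXC8 from -0.19 to 0.16, HOXD10 from -0.13 to 0.16 and HOXD12 from -0.065 to 0.92. The sign changed without shCtrl 1 for HOXA5, HOXA6 and HOXB4, without shCtrl 2 for HOXC8, without shRPRD1B 1 for HOXA13, HOXB4 and HOXC8, and without shRPRD1B 2 for HOXA5, HOXA6, HOXD10 and HOXD12. The cause was not tested.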

Other observations

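Homeobox genes related to the HOX family but outside the clusters were mostly low. Of 10 listed, 6 were tested, 0 were called by edgeR or DESeq2, 0 had an unadjusted p under 0.05 in edgeR, and 5 of the 6 had a negative log2 fold change. GBX1 measured 7.09 and 7.91 CPM in shCtrl and 6.70 and 4.65 CPM in shRPRD1B and PDX1, a gene of the pancreas, 4.07 and 4.03 CPM in shCtrl and 3.25 and 3.32 CPM in shRPRD1B. EVX2, which lies beside HOXD13, was at most 0.678 CPM in any library, although HOXD13 was the highest HOX gene per kilobase. GSX1 had 0 counts in all 4 libraries.

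The 6 letters ACTAGC were in the 3′ UTR of 3 of 39 HOX genes (7.69%), HOXB1, HOXB13 and HOXC13, against 12.4% of 18881 protein-coding genes. The HOXA13 window around the start of transcription had 76.3% GC, the highest of the 27 HOX windows, whose median was 58.0%. The HOXD1 and HOXD13 windows were close to it at 74.3% and 74.0%.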
